A study of Mus musculus with 4 samples.

Results

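Round spermatid-like cells were picked out of single cell RNA-seq of adult mouse testes. They were 151 of 812 cells from 4 mice, with 18 of 96 cells in WT mouse 1, 47 of 242 in WT mouse 2, 42 of 228 in Ctcf-cKO mouse 1 and 44 of 246 in Ctcf-cKO mouse 3. In each library the cells were ranked by the share of their counts on 7 genes, namely ACRV1, SPACA1, SPACA3, GLIPR1L1, TSSK4, ACR and SPAM1. The top 20% were taken, and those that were also in the top 20% for the 4 transition protein and protamine genes TNP1, TNP2, PRM1 and PRM2 were left out (1, 1, 4 and 5 cells, in the order of mice above). The cells were therefore chosen by measured values, and their levels of these 11 genes are a description and not a result. The remaining 661 cells are called other cells below.

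The WT mice were labelled C56BL/6J (Ctcf wt/wt) and the Ctcf-cKO mice C56BL/6J (Stra8-iCre-Ctcf f/Δ), and all were 15 weeks old. The methods also allow littermates with floxed alleles and no deletion as WT. In the Ctcf-cKO mice 1 Ctcf allele was deleted throughout and the other was removed by a Cre driven from Stra8, a gene switched on in germ cells as they approach meiosis, so that somatic cells of the testis kept a floxed copy. Each mouse gave 1 ddSEQ library of 3′ ends, and filtrates of more than 1 tube were pooled for the Ctcf-cKO mouse, per the methods. CTCF is the zinc finger protein that holds the anchors of chromatin loops, and the comparison of genotypes addresses what its loss does to spermatid transcripts.

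Round spermatids are the haploid cells that follow the meiotic divisions. They keep a round, still transcribing nucleus while Golgi vesicles fuse into the acrosome, the enzyme sac that later opens at the egg coat, and while the axoneme of the tail is assembled. Many of their transcripts are stored and translated only later, when histones are replaced by transition proteins and then by protamines in elongating spermatids. CREM, a member of the CREB family, is the textbook activator of haploid genes, and it binds the cAMP response element (CRE).

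Promoters of 5 acrosomal genes are given to show the kind of gene that marks these cells, from 250 bases before to 50 after the transcription start of the RefSeq table for GRCm38.p6. ACRV1 and SPACA3 belong to the rule, while LYZL6, TMEM95 and IZUMO1 do not. They lie at chr9:36692970-36693269 (plus strand), chr11:80858113-80858412 (plus, the first of 2 listed starts), chr11:103638841-103639140 (minus), chr11:69878006-69878305 (minus) and chr7:45621561-45621860 (plus). Capitals mark TGACG, the core of the CRE, on either strand.
ACRV1: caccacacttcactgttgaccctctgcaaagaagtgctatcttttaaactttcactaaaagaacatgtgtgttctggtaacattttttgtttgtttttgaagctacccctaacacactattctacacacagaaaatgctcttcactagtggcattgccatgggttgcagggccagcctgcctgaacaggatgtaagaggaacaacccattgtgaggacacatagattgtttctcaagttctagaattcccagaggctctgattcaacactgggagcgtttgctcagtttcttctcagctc
SPACA3: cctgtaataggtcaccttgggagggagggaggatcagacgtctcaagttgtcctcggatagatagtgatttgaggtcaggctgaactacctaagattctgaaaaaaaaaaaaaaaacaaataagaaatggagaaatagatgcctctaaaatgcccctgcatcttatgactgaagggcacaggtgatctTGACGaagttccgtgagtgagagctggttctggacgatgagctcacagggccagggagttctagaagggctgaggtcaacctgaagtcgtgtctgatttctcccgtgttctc
LYZL6: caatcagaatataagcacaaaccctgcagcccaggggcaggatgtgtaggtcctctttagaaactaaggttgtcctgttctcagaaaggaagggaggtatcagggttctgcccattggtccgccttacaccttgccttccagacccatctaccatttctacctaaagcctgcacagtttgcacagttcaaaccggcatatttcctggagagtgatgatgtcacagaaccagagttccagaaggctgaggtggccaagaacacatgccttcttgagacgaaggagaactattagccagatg
TMEM95: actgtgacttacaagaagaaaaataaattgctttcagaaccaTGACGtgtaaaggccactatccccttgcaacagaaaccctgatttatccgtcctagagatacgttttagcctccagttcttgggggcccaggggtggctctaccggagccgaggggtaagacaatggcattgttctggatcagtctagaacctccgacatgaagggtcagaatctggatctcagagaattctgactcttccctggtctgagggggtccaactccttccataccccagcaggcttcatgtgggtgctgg
IZUMO1: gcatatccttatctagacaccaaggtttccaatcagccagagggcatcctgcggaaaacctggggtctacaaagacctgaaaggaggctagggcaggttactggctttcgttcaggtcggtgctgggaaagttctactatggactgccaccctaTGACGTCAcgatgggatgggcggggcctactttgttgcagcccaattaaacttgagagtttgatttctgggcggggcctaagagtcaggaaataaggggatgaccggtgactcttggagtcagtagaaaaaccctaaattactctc

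The full CRE, TGACGTCA, was found once among these 5, in IZUMO1, where it covers 2 cores on opposite strands that begin 96 and 93 bases before the start. SPACA3 and TMEM95 hold 1 core each, 62 and 208 bases before the start, and ACRV1 and LYZL6 hold none. Over all 27025 genes with an entry the full CRE was present in 2.03% and the core, also where it is part of a full CRE, in 23%. Among the 8162 genes that had an entry and were compared between the cell classes the shares were 3.74% and 35%, and among the 446 of these that were at least 2-fold higher in round spermatid-like cells in every mouse they were 3.59% and 27.1%. In this window the CRE was thus no more frequent among the genes high in these cells than among the genes compared. TATAAA was found in 15.7%, 9.34% and 11.7% of the same sets.

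Depth differed between the libraries, with totals of 6701235 counts for WT 1, 4859455 for WT 2, 2652665 for Ctcf-cKO 1 and 1593546 for Ctcf-cKO 3. Where 4 values are given below, they follow this order. The tables list 5603 to 6474 barcodes, of which 4227, 2075, 327 and 293 passed the stated limits on genes and mitochondrial counts before the count minimum of each library was applied. No member barcode was shared between libraries, and 1 barcode of the 812 cells was shared, between WT 2 and Ctcf-cKO 1. A doublet caller marked 3, 5, 22 and 17 cells, 7 of which were among the members (1, 2, 4 and 0). The deposited counts are whole numbers, but values of 1 to 4 made up between 84.4% and 90.3% of all nonzero entries and values of 5 only 2.81% to 3.54%. In Ctcf-cKO 1 the value 4 was the most frequent. A count is therefore not taken for a molecule here, and intervals from counts cover counting error only.

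The support for the name differs between the mice. A round spermatid-like cell held a median of 36160.5 counts and 4916 genes in WT 1, 12507 counts and 2748 genes in WT 2, 7832 counts and 1758 genes in Ctcf-cKO 1, and 2038 counts and 659.5 genes in Ctcf-cKO 3. Counts on the 7 marker genes ranged from 9 to 258 per cell in WT 1 with a median of 100.5, and from 8 to 236 in WT 2 with a median of 44. They ranged from 2 to 162 with a median of 17 in Ctcf-cKO 1, and from 2 to 307 with a median of 4 in Ctcf-cKO 3. At least 9 marker counts were held by 18 of 18, 46 of 47, 31 of 42 and 6 of 44 cells. In Ctcf-cKO 3, 24 of 44 cells had entered with at most 4 marker counts, which the size distribution above does not tell from a single molecule.

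The lowest member stood at a marker share of 0.124%, 0.243%, 0.146% and 0.0813% of its counts, and the first cell outside the top 20% at 0.106%, 0.24%, 0.145% and 0.077%. There was no gap at the threshold in any library. Free RNA, taken as the barcodes with fewer than 200 genes, carried the 7 genes at 0.232%, 0.185%, 0.0897% and 0.0968%, so that in WT 1 and Ctcf-cKO 3 the lowest members lay below the free RNA of their own library. Summed over cells, the share was 0.339%, 0.401%, 0.278% and 0.321% in round spermatid-like cells and 0.0279%, 0.111%, 0.0371% and 0.0105% in other cells. In 34 of 42 and 37 of 44 Ctcf-cKO members, counts on markers of somatic and blood cells outnumbered those on the 7 genes, against 1 of 18 and 2 of 47 WT members.

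**Figure D1:**
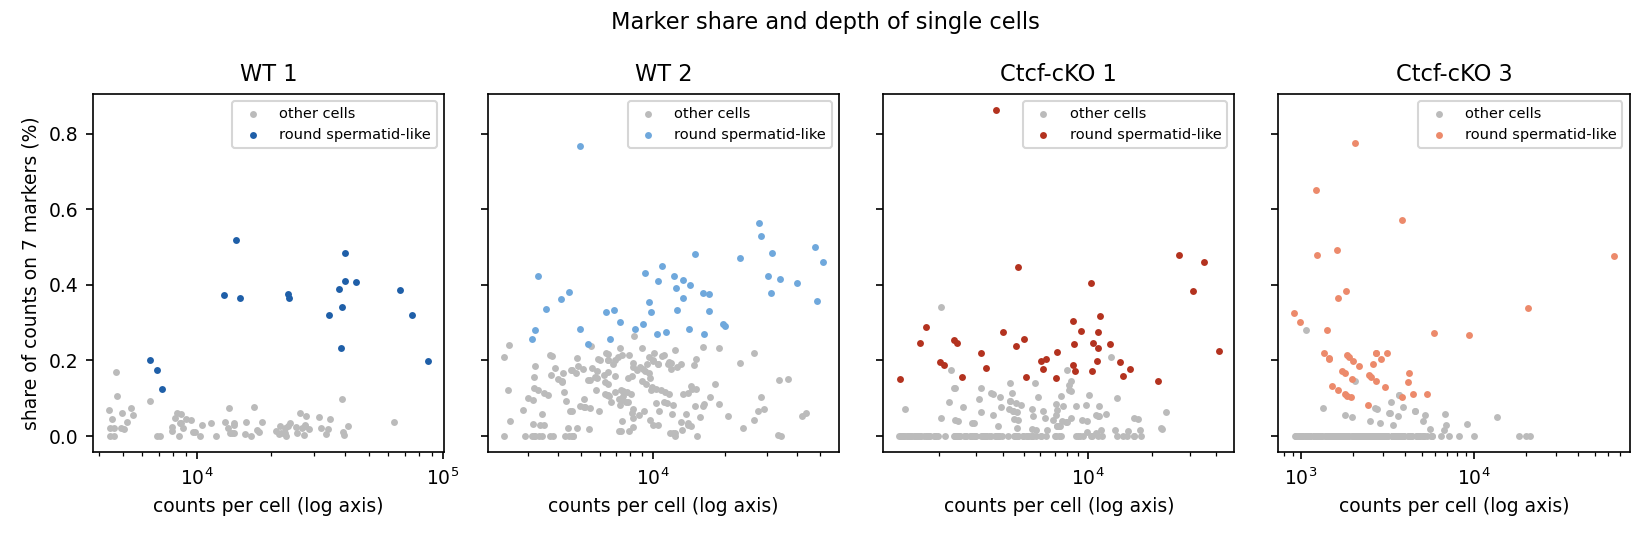
Each point is a cell, with its total counts on a log x axis and the share of its counts on the 7 marker genes in percent on the y axis, 1 panel per mouse. Coloured points are the round spermatid-like cells; in Ctcf-cKO 3 most of them lie at low depth (median 2038 counts) and 175 of 246 cells sit at a share of 0.

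Genes that the rule did not use also set these cells apart. Of 10759 genes with at least 40 counts, 587 were at least 2-fold higher in round spermatid-like than in other cells in each of the 4 mice (5.46%), and 130 were at least 2-fold lower in each (1.21%). Counts were summed over the cells of a class and mouse and scaled by their total to CPM. Since the same cells define the classes, these are descriptions without a test.

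By the share of genes past 2-fold the acrosome list stood first. Of 44 further acrosomal genes 16 were at least 2-fold higher in each mouse (36.4%, against 5.46% of all genes), none was lower by 2-fold, and 35 were higher by any amount in all 4 mice (79.5%, against 24.6% of all genes). Their median log2 ratio was 1.47, against 0.12 for all genes. LYZL6, a lysozyme-like sperm protein, stood at 428, 633, 241 and 295 CPM in round spermatid-like cells of WT 1, WT 2, Ctcf-cKO 1 and Ctcf-cKO 3, and at 23.3, 117, 28.8 and 24.3 CPM in other cells. In each mouse the members were the higher class, by at least 5.39-fold. IZUMO1, the sperm ligand for egg fusion, stood at 225, 258, 152 and 160.4 CPM against 39.1, 69.9, 40.9 and 12.9 CPM. TMEM95, another sperm protein needed for fusion, rested on few reads, with 38, 38, 19 and 4 counts in members and 13, 24, 4 and 1 in other cells, and log2 ratios of 2.63, 1.95, 3.49 and 3.26.

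EQTN, an acrosomal membrane protein, stood at 382, 359, 294 and 155 CPM in members, with log2 ratios to other cells of 4.86, 1.92, 2.93 and 1.99. For SPACA4, a sperm surface protein that binds the egg coat, the values were 655, 620.2, 351 and 626 CPM against 53.5, 185, 104 and 87.4 CPM. HYAL5, a sperm hyaluronidase, was at 240.0, 158, 118 and 67.3 CPM against 8.28, 58.7, 11.2 and 3.24 CPM. For all 6 the ratio was smallest in WT 2, where other cells had the highest values of the 4 mice. FAM209, SPATA46, ZP3R, ZPBP, PDILT, TMEM190, TMEM225, LYZL1, SPACA5 and an uncharacterised RIKEN transcript completed the 16.

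Of 29 other genes typical of round spermatids 9 were at least 2-fold higher in each mouse (31.0%), with a median log2 ratio of 0.81. They include subunits of CatSper, the calcium channel of the sperm tail. CATSPER3 was at 191, 198, 74.6 and 124 CPM in members and 15.1, 50.7, 21.4 and 11.3 CPM in other cells, and CATSPER1 and CATSPER4 also met the limit. ACTL7B, an actin-like protein of the spermatid head, was at 1508, 1447, 1001 and 1143 CPM against 123, 576, 290.3 and 243 CPM. LRRC34, TEX29, TEX36, SUN5 and a RIKEN transcript were the others. The list as a whole took 1.66%, 1.68%, 1.38% and 1.34% of the members' counts, against 1.64%, 1.57%, 1.09% and 1.01% in other cells. Members above the median share of the other cells numbered 7 of 18, 34 of 47, 29 of 42 and 25 of 44. The list as a whole thus set the members little apart in WT 1 and Ctcf-cKO 3. On this list, against 1765 of all 10759 genes, 6 of 29 were lower in members in all 4 mice. H1FNT, the linker histone of late spermatids, was one of them, at 691, 1022, 778 and 993 CPM against 2629.7, 1543, 1263 and 1559.7 CPM.

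Regulators of haploid transcription followed, with 3 of 25 genes past 2-fold (12%) and a median log2 ratio of 0.99. HSFY2, a heat shock factor relative of the testis, was at 371, 261, 221 and 367 CPM against 19.6, 64.6, 39.1 and 22.7 CPM. SOX5, an HMG box factor with a spermatid isoform, was at 808, 573, 402 and 849 CPM against 53.5, 185, 82.8 and 58.2 CPM. CREB3L4, a membrane-bound bZIP factor, was at 1309, 1352, 1018 and 1087 CPM against 407, 607, 327 and 417 CPM. CREM was higher in members in all 4 mice but below 2-fold in WT 2, at 470.1, 334, 445 and 341 CPM against 99.4, 201, 106 and 100.3 CPM. RFX2, which turns on cilium genes in spermatids, took no side, with 139, 97.4, 130.0 and 82.8 CPM against 82.1, 161, 93.0 and 100.3 CPM.

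The tail was represented as well. Among 52 axoneme and flagellum genes the median log2 ratio was 1.49. Of these 29 were higher in all 4 mice (55.8%, against 24.6% of all genes) and none was lower in all 4. The 5 past 2-fold (9.62%, against 5.46%) were DNAJB13, SPAG6, TEKT2, TEKT4 and TTLL9. TEKT4, a tektin of the doublet microtubules, was at 547, 615, 506 and 538 CPM in members and at 39.9, 297, 94.0 and 68.0 CPM in other cells. SPAG6, a protein of the central pair, was at 691, 639, 604 and 435 CPM against 55.0, 237, 137 and 95.5 CPM. In both genes every members' value lay above every value of other cells.

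Genes of meiotic spermatocytes were also measured in these cells. Of 36 genes 15 were higher in members in all 4 mice (41.7%, against 24.6% of all genes) and 4 were lower. The median log2 ratio was 0.73. Members above the median share of the other cells numbered 18 of 18, 39 of 47, 38 of 42 and 32 of 44. In each mouse these were more than on the list of other round spermatid genes. Past 2-fold was 1 gene (2.78%, against 5.46%), TEX15, a factor of meiotic repair and transposon silencing. It stood at 212, 57.9, 98.7 and 31.0 CPM against 10.5, 25.6, 10.2 and 12.9 CPM, resting on 6 member counts in Ctcf-cKO 3. The list took 0.85%, 0.822%, 0.809% and 0.754% of the members' counts 0.423%, 0.741%, 0.412% and 0.385% of those in other cells and 0.798%, 0.696%, 0.410% and 0.468% of free RNA, which lay close to the members in WT mice. The rule did not ask for low spermatocyte genes, and the part of earlier cells in these values was not tested.

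Transcripts of elongating spermatids ran the other way. Of 29 genes besides the 4 of the rule 19 were lower in members in all 4 mice, against 1765 of all 10759 genes. By at least 2-fold 2 were lower (6.90%, against 1.21% of all genes) and 1, ODF3, was higher (3.45%, against 5.46%). The median log2 ratio was -0.55. The list took 3.09%, 4.23%, 3.74% and 3.55% of the members' counts against 7.91%, 5.74%, 4.92% and 4.58% in other cells. WT 1 had the widest contrast. The direction is in part set by the rule, which left cells high in the 4 transition protein and protamine genes out of the members. Those cells stayed among the other cells, and held 7.45%, 7.10%, 7.82% and 6.88% of their counts on this list. The contrast without them was not tested. The 4 excluded genes, as a description, took 1.65%, 4.54%, 4.92% and 4.19% in members, and 4.64%, 8.96%, 9.38% and 8.67% in free RNA.

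In summed counts, markers of the other cells of the testis were lower in members than in other cells but not absent. No gene of the Leydig, Sertoli, macrophage, interstitial or haemoglobin lists was higher in members in every mouse by 2-fold. Median log2 ratios were -1.59 for 20 Leydig, -1.43 for 17 Sertoli, -1.77 for 16 macrophage, -0.91 for 9 interstitial and -1.47 for 4 haemoglobin genes. Together these lists made up 0.0635%, 0.0760%, 1.05% and 1.32% of the members' counts, 0.334%, 0.177%, 3.55% and 3.05% in other cells and 0.130%, 0.174%, 1.63% and 1.61% in free RNA. Per cell, the median share of these lists was 0.0421%, 0.0746%, 1.32% and 2.45% in members and 0.0428%, 0.145%, 2.53% and 2.70% in other cells. Members above that median of other cells numbered 9 of 18, 9 of 47, 5 of 42 and 18 of 44. The typical member of WT 1 and Ctcf-cKO 3 thus lay close to the other cells. In the haemoglobin list the WT members held 0 and 2 counts and the Ctcf-cKO members 258 and 143. In all 3 compartments both Ctcf-cKO mice lay above both WT mice.

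The share of the acrosome list also separated the genotypes, in the other direction. It was 1.85% and 1.81% in WT and 1.37% and 1.35% in Ctcf-cKO members, 1.07% and 1.28% against 0.779% and 0.736% in other cells, and 1.73% and 1.39% against 0.998% and 1.03% in free RNA. A lower share of this list was thus measured in Ctcf-cKO mice whether or not the counts came from members. The other round spermatid list separated the genotypes likewise, at 1.66% and 1.68% in WT and 1.38% and 1.34% in Ctcf-cKO members. So did the axoneme list, at 1.61% and 1.43% against 1.33% and 1.30%, and both lists did so in other cells and free RNA. The elongating spermatid list did not separate them in members. Of single genes tested in members, 45.3% had both Ctcf-cKO mice on 1 side of both WT mice.

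**Figure D2:**
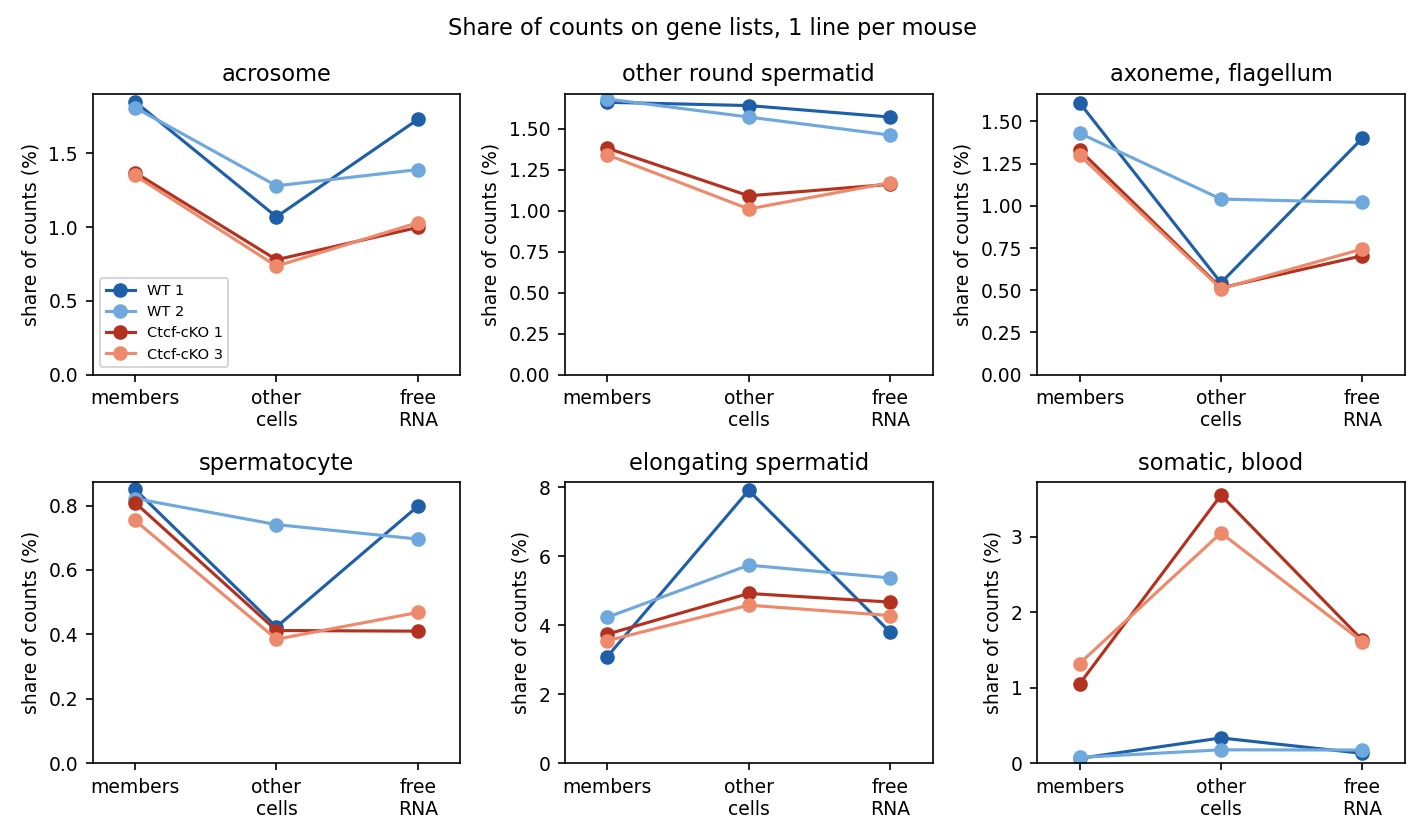
Share of counts in percent (y axis, from 0) on 6 gene lists in round spermatid-like cells (members), other cells and free RNA (barcodes under 200 genes), with 1 line per mouse and no genes of the rule included. The acrosome list is highest in members in each mouse (1.35% to 1.85%), and the somatic and blood lists are high in all compartments of the Ctcf-cKO mice.

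The share of counts on the 44 acrosomal genes had a lowest, median and highest value of 0.362%, 1.85% and 2.39% in WT 1, 0.992%, 1.67% and 2.52% in WT 2, 0.141%, 1.25% and 2.48% in Ctcf-cKO 1, and 0%, 0.884% and 2.28% in Ctcf-cKO 3. The cells above the median of the other cells of their library numbered 16 of 18, 43 of 47, 39 of 42 and 25 of 44. By construction 1 in 2 other cells also lies above that median, so that in Ctcf-cKO 3 the acrosomal genes outside the rule set the members little apart, and 72.5% of the members' acrosomal counts came from 5 cells. The 6 cells there with at least 9 marker counts carried 1.78% acrosomal, 1.68% axonemal and 0.196% somatic and blood counts when summed. The remaining members carried 0.824%, 0.826% and 2.70%. In Ctcf-cKO 1 the same split gave 0.985% and 1.92% somatic and blood counts.

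Transition protein and protamine counts also varied. Their share per member had a median of 0.234% in WT 1, against 6.61%, 6.65% and 8.08% in WT 2, Ctcf-cKO 1 and Ctcf-cKO 3, where the medians of other cells were 16.1%, 11.5%, 10.1% and 9.85%. In WT 1 all members lay below the median of other cells, and in Ctcf-cKO 3, 10 of 44 lay above it. Among the 6 deeper Ctcf-cKO 3 cells the summed share was 0.849%, and among the remaining ones 8.28%.

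The 14 genes with the largest lowest ratio over the mice, apart from the rule, included only 1 listed gene, LYZL6. SWT1, an RNA endonuclease, was at 175, 153, 159 and 155 CPM in members and at 19.6, 23.0, 12.1 and 8.09 CPM in other cells. Its member values, from 107, 116, 66 and 30 counts, were the closest to each other among the 14. EIF5B, the GTPase that joins the ribosomal subunits at the start codon, was at 930.5, 338, 229 and 589.8 CPM against 75.3, 56.1, 29.8 and 50.2 CPM. FAM24A, a testis-expressed secreted protein, was at 416, 338, 199.8 and 269 CPM against 44.4, 55.5, 18.6 and 21.0 CPM.

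TRIML1, a TRIM-like protein, was at 299, 178, 135 and 124 CPM against 12.8, 34.7, 20.5 and 12.9 CPM. MEIKIN, the meiotic kinetochore protein, was low but again on 1 side, at 35.9, 35.6, 21.7 and 31.0 CPM against 2.26, 6.94, 3.72 and 0 CPM. IQCA, LAMB3 and the uncharacterised 4921521D15RIK, 4932411K12RIK, GM9877, GM15473, GM20268 and GM35216 were the others. Several of these stand on fewer than 20 counts in Ctcf-cKO 3 members, 4921521D15RIK on 8.

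**Figure D3:**
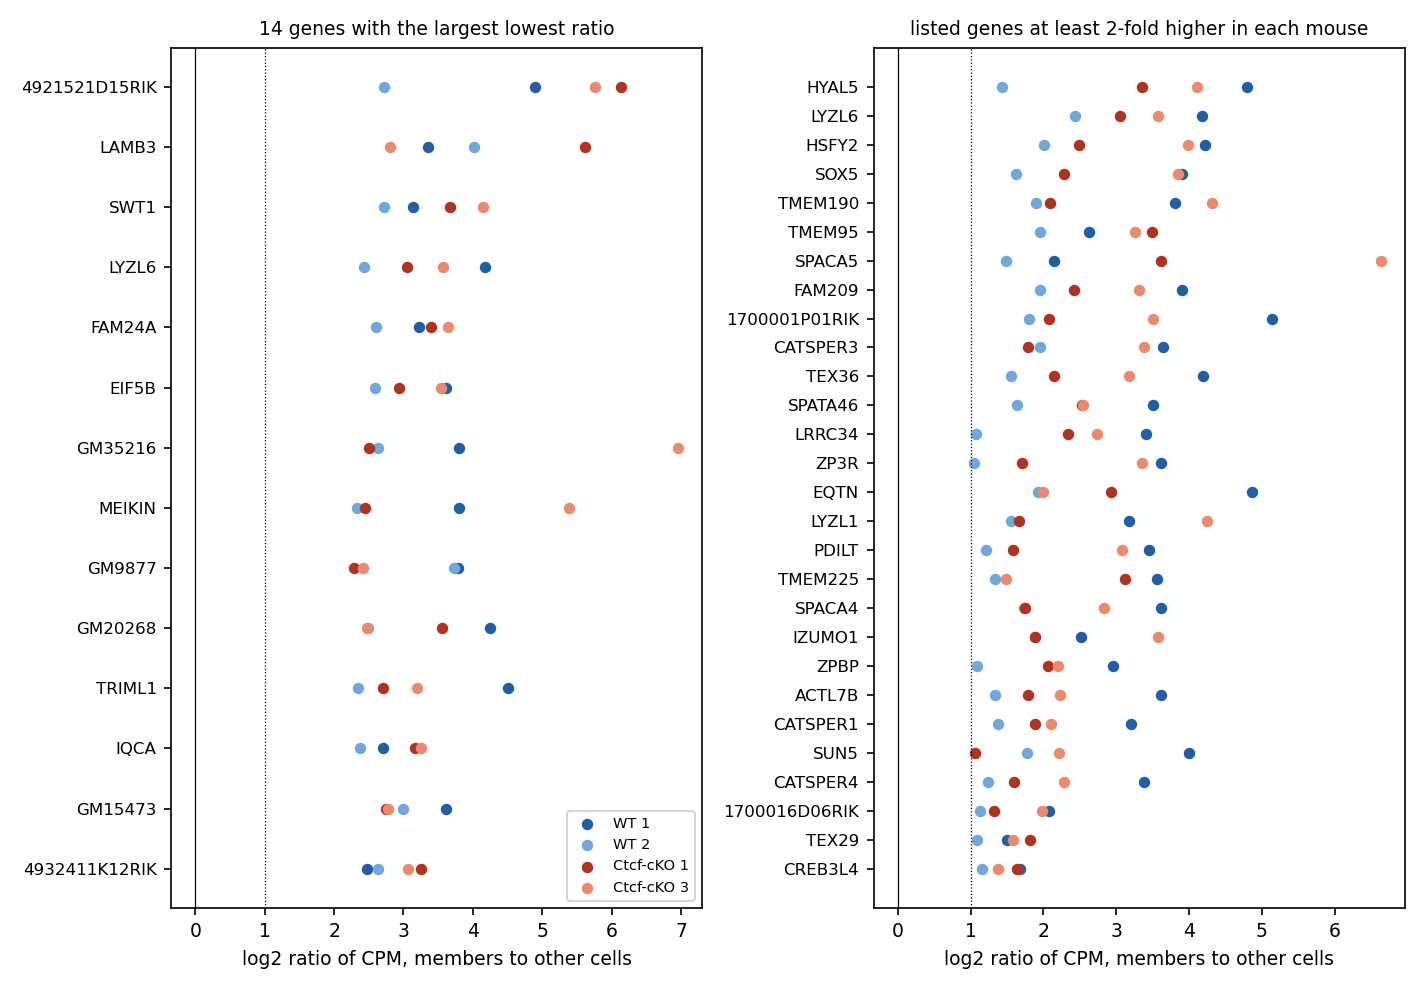
Log2 ratio of CPM in round spermatid-like to other cells, 1 point per mouse, for the 14 genes with the largest lowest ratio (left) and for the acrosomal, other round spermatid and transcription genes that were at least 2-fold higher in each mouse (right). A pseudocount of 0.5 counts is added, the dotted line marks 2-fold, and WT 2 (light blue) tends to the left, as for LYZL6 with the values given above.

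X-linked genes are silenced in meiosis and only in part read again in round spermatids. Of 304 X-linked genes compared, 36 were at least 2-fold higher in members in each mouse (11.8%, against 5.46% of all genes) and 7 were lower, while the median log2 ratio was -0.14. The X took 1.60%, 1.28%, 2.07% and 2.13% of the counts of other cells, and its share in members differed from that by -0.0740, 0.216, -0.344 and -0.566 percentage points. Only in WT 2 was it higher in members. Members of Ctcf-cKO mice were higher by 0.134 percentage points than those of WT mice, at 1.65% ± 0.118 against 1.51% ± 0.0241 (SD, n = 2 each; exact permutation test, two-sided, p = 0.333, the smallest p that 2 against 2 allows). With only the cells of at least 9 marker counts the difference turned to -0.0346.

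Thinned to 900 counts per cell, a member showed a median of 716 and 653 genes in WT mice and 620 and 482 in Ctcf-cKO mice, and other cells showed 470.5, 570, 501 and 464. Unthinned medians were 4916, 2748, 1758 and 659.5. The genotype means of members were 685 ± 44.9 and 551 ± 97.9 genes (SD, n = 2 each; exact permutation test, two-sided, p = 0.333). In each mouse the members had more genes at equal depth than other cells, by 246, 83, 119 and 18. The rule bears on this direction, since it left cells high in the 4 transition protein and protamine genes among the other cells. Those genes took 16.4%, 11.2%, 9.67% and 11.4% of the counts of other cells, against 1.65%, 4.54%, 4.92% and 4.19% in members. The part of the rule in the difference was not tested.

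For the genotype, CTCF itself was looked at first. Members of WT 1 held 6 counts in 3 cells, those of WT 2 and Ctcf-cKO 1 held none, and those of Ctcf-cKO 3 held 4 counts in 1 cell. The 0 of 47 and 0 of 42 cells allow a share of such cells with a count of up to 6.38% and 7.14%. Other cells held 14, 24, 0 and 0 counts. CTCF was not among the genes tested by genotype below. The sources used here do not give which exons Cre removes, so 3′ counts may lie outside the deleted part, and the loss of CTCF was not detectable at this depth in these cells.

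Summed counts per mouse were then compared with edgeR over 6792 genes. Of these, 187 were higher in Ctcf-cKO than in WT round spermatid-like cells (2.75%) and 14 were lower (0.206%) at a Benjamini-Hochberg adjusted p of 0.05, with 910 genes under an unadjusted p of 0.05. Of the 187 rises, 27 were on lists of somatic and blood cells, 5 were mitochondrially encoded, 3 were ribosomal and 152 were on no list. None of 275 genes on the 12 germ cell lists was called in either direction by edgeR or by DESeq2. The 275 include TSSK4 of the rule. Of 39 genes tested on the lists of Leydig, Sertoli, macrophage, interstitial and red blood cells 27 rose and none fell. Nearly all members of both genotypes held some counts on these somatic and blood lists, with 1 of 18, 0 of 47, 0 of 42 and 2 of 44 cells at 0, and the median share per member was 0.0421%, 0.0746%, 1.32% and 2.45%.

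Red cell and Leydig transcripts were among the largest rises, with 4 of the 12 named by size on these lists. HBB-BS, the adult beta globin, had no counts in the members of either WT mouse and stood at 433 and 507 CPM in Ctcf-cKO 1 and 3, at least 209-fold higher with a floor of 3 counts over the group (edgeR, Benjamini-Hochberg adjusted p = 2.33e-06). In other cells it stood at 1.51, 1.60, 2503 and 712 CPM and in free RNA at 47.6, 3.39, 857 and 1281 CPM. HBA-A1 had no count in WT members and 49 and 29 counts in Ctcf-cKO members, at least 58.6-fold higher (edgeR, adjusted p = 1.45e-04). HSD3B1, a steroidogenic dehydrogenase of Leydig cells, was at 0, 0, 106 and 212 CPM, at least 63.9-fold higher (edgeR, adjusted p = 1.23e-04). The globin genes have near-identical copies, as have HSD3B1 and HSD3B6, and reads may be split between them. CYP17A1, which turns progestogens into androgens, was at 1.63, 0, 209 and 517 CPM in members, at 139, 2.14, 1452 and 1050.0 CPM in other cells and at 9.53, 3.39, 495 and 452 CPM in free RNA.

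GSTM1, a glutathione transferase of Leydig cells, was the most significant rise on a list, at 45.7, 80.3, 1998 and 2659 CPM, a log2 fold of 5.19 ± 0.36 (SE; edgeR, adjusted p = 2.33e-06). CLU of Sertoli cells was at 4.90, 56.6, 599 and 616 CPM, APOE of macrophages and Leydig cells at 86.5, 27.7, 1276 and 1754 CPM, and DCN of interstitial fibroblasts at 24.5, 19.8, 1059 and 181 CPM. The 2 Ctcf-cKO mice lay above both WT mice in each. By list, 11 of 14 Leydig, 5 of 9 Sertoli, 5 of 7 macrophage, 3 of 6 interstitial and 3 of 3 haemoglobin genes tested rose, and 2.75% of all genes. Their median log2 folds were 5.52, 4.27, 4.78, 4.60 and 9.05, or 5.52, 4.23, 4.78, 4.25 and 5.87 with genes absent from 1 genotype at their bound, against -0.03 for all genes.

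The other large rises by the naming rule had no WT member counts. They were ANXA5 at 65.0 and 155 CPM, ACAA2 at 60.2 and 135, ASS1 at 24.1 and 176, GPT2 at 79.4 and 109, FOLR1 at 77.0 and 103, TUBB5 at 69.8 and 103, PKDCC at 36.1 and 139.7 and HADH at 62.6 and 93.1 CPM in Ctcf-cKO 1 and 3. ASS1, ACAA2, GPT2 and HADH are enzymes of amino acid and fatty acid metabolism. Lower bounds of these rises ran from 31.6-fold for PKDCC to 42.8-fold for ANXA5. Of 7 mitochondrially encoded genes tested 5 rose, with a median log2 fold of 3.58, and mitochondrial counts made up 0.0411%, 0.0533%, 0.516% and 0.705% of member counts against 0.0895%, 0.588%, 5.65% and 6.09% of free RNA. Of 41 ribosomal protein genes 3 rose, RPS3, RPL14 and RPL39. PKDCC lost its call without Ctcf-cKO 3 (edgeR, adjusted p = 0.0874), RPL14 without Ctcf-cKO 1 (0.0858) and RPL39 without WT 1 (0.224) or WT 2 (0.181).

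Values in the other compartments moved with the rises. Of the 187 genes, 186 were also higher in Ctcf-cKO other cells and 186 in Ctcf-cKO free RNA. How many of all genes tested kept their direction was not counted, so these counts have no share to stand against. In both Ctcf-cKO mice 163 of 187 stood higher in other cells than in members (87.2%), against 23.2% of all genes tested. On log2 of mean CPM plus 5, their median difference was 3.35 in members, 3.06 in other cells and 2.62 in free RNA. Over all genes tested it was -0.05, -0.14 and -0.24. The part of free RNA and of single misplaced cells in these rises was not tested. Without the cells marked as doublets 173 genes were called, with 168 of the 201 among them. When only members with at least 9 marker counts were kept, no gene was called by edgeR (299 under an unadjusted p of 0.05), with 6 cells left in Ctcf-cKO 3. Without Ctcf-cKO 1 the count was 377 and without Ctcf-cKO 3 it was 340.

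**Figure D4:**
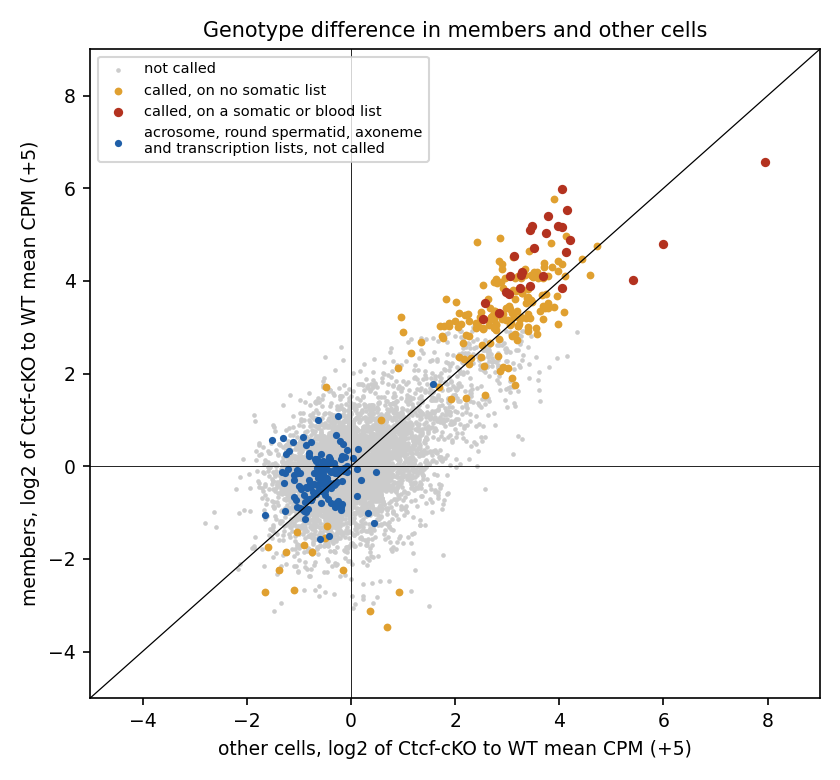
Each point is a gene tested, with the log2 ratio of mean CPM (5 CPM added) of Ctcf-cKO to WT mice in other cells on the x axis and in round spermatid-like cells on the y axis, and the diagonal marks equal differences. Called genes of somatic and blood lists (red) lie high on both axes, and genes of the acrosome, round spermatid, axoneme and transcription lists (blue), none of which was called, lie mostly between -2 and 2 on both.

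The germ cell lists themselves stayed below the threshold. Of all 6792 genes 3525 had a negative log2 fold and 345 were lower at an unadjusted p under 0.05. Of 43 acrosomal genes tested 35 had a negative log2 fold, 9 of them at an unadjusted p under 0.05, and the median was -0.41, against -0.03 for all genes. SPINK2, a protease inhibitor of the acrosome, had the smallest adjusted p of that list, at 864, 787, 457 and 367 CPM with a log2 fold of -0.97 ± 0.28 (SE; edgeR, adjusted p = 0.0835). SUN5, which joins the sperm head to the tail, had -1.61 ± 0.48 (SE; edgeR, adjusted p = 0.0987). Both were chosen after their values were seen. LYZL6, with the CPM given above, had a log2 fold of -0.99 ± 0.32 (SE; edgeR, adjusted p = 0.140). HYAL5 had -1.01 ± 0.41 (SE; edgeR, adjusted p = 0.274). Of 29 other round spermatid genes 21 were negative, 7 at an unadjusted p under 0.05, with a median of -0.40. Medians were -0.11 for 20 transcription genes, -0.06 for 48 axoneme genes, -0.13 for 28 spermatocyte genes and 0.03 for 29 genes of elongating spermatids.

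Of the 20 transcription genes tested 15 had a negative log2 fold and none was called. Their log2 folds ran from -1.30 to 2.25, with 2 lower and 0 higher at an unadjusted p under 0.05 (edgeR). CREM had a log2 fold of 0.01 ± 0.30 (SE; edgeR, adjusted p = 0.995) and SOX5 one of -0.14 ± 0.33 (SE; edgeR, adjusted p = 0.938). With 2 mice a group these intervals still span changes in either direction. Of the 567 genes tested that were at least 2-fold higher in members than in other cells, 445 had a negative log2 fold, against 3525 of 6792, 4 fell past the threshold, against 0.206% of all genes, and none rose, with a median of -0.41. That set was chosen with the same 4 mice in view.

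None of the 14 falls was on a list, and the 12 largest are named. BET1, a SNARE of transport between endoplasmic reticulum and Golgi (chromosome 6), was at 129, 144, 7.22 and 25.9 CPM in WT 1, WT 2, Ctcf-cKO 1 and Ctcf-cKO 3, from 79, 109, 3 and 5 counts. Its log2 fold was -3.24 ± 0.62 (SE; edgeR, adjusted p = 0.00785), while in other cells it stood at 12.0, 42.2, 33.5 and 77.7 CPM, with the order of the genotypes not separated. SPATA17, a calmodulin-binding protein of the spermatid (chromosome 1), was at 323, 163, 65.0 and 62.1 CPM, a log2 fold of -1.89 ± 0.43 (SE; edgeR, adjusted p = 0.0252). GOT1L1, a relative of aspartate aminotransferase expressed in testis (chromosome 8), was at 229, 187, 69.8 and 46.6 CPM (edgeR, adjusted p = 0.0309). DPEP3, a membrane-bound dipeptidase of germ cells (chromosome 8), was at 274, 344, 120.4 and 62.1 CPM (edgeR, adjusted p = 0.0309). In each of these 4 genes both Ctcf-cKO mice lay below both WT mice, which the naming rule required. Of all genes tested 45.3% had the genotypes apart in one direction or the other.

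The remaining named falls were uncharacterised transcripts. GM19990 was at 37.5, 63.2, 0 and 0 CPM, at least 10.5-fold lower, and GM43619 at 44.1, 32.9, 0 and 0 CPM, at least 7.69-fold lower. GM42881 was at 70.2, 79.0, 9.63 and 5.17 CPM and 1700017L05RIK at 63.7, 205, 16.9 and 15.5 CPM. 1700027F06RIK, 4932415D10RIK, 4930564C03RIK and 1700029I15RIK had log2 folds of -2.54, -2.26, -1.94 and -1.56. Of the 14 falls, 11 had the same direction in other cells and all 14 in free RNA. The share of all genes tested that kept their direction was not counted. On log2 of mean CPM plus 5, all genes tested had a median difference of -0.14 in other cells and -0.24 in free RNA. For the falls these medians were -0.82 and -1.39. Counts behind the Ctcf-cKO 3 values are low, with 1 count for GM42881 and 17 for 1700029I15RIK. Of the 12, only BET1 kept its call when each mouse was left out in turn, and the highest adjusted p of the other 11 in edgeR ran from 0.102 for 4930564C03RIK without WT 1 to 0.722 for GM43619 without WT 1. None of the falls was called with only the members of at least 9 marker counts, and BET1 also lost its call with the top 10% or 30% of cells (edgeR, adjusted p = 0.370 and 0.0733) and with 1 common marker share (0.179).

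**Figure D5:**
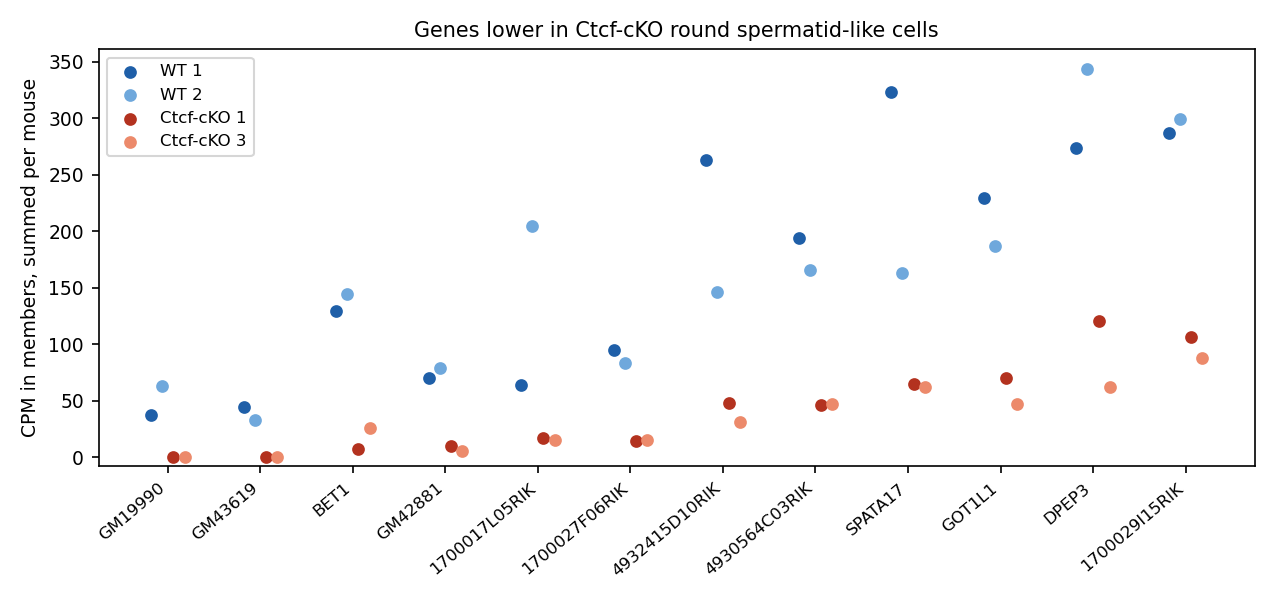
CPM in round spermatid-like cells summed per mouse (y axis) for the 12 named genes that were lower in Ctcf-cKO mice, with 1 point per mouse. The red points of both Ctcf-cKO mice lie below the blue points of both WT mice for every gene shown, which the naming rule required. For GM19990 and GM43619 the red points are at 0.

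Whether the genotype acted differently on round spermatid-like cells than on the other cells of the same mouse was tested with a class by genotype term. No gene of 9858 was called by edgeR (0%) or by DESeq2, with 434 under an unadjusted p of 0.05 in edgeR and a lowest adjusted p of 0.0731. That lowest value belonged to BET1, whose log2 fold in members was lower than in other cells by 4.19 ± 0.93 (SE). None of the genes named next passed. LZTS2, a leucine zipper protein, was at 27.8, 43.5, 0 and 0 CPM in members and at 7.53, 19.2, 52.1 and 42.1 CPM in other cells (edgeR, adjusted p = 0.132). CYP51, the lanosterol demethylase of sterol synthesis, was at 149, 151, 74.6 and 77.6 CPM in members and at 15.8, 58.2, 153 and 119.7 CPM in other cells (edgeR, adjusted p = 0.150).

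On the other side HSD3B1, FOLR1 and TMEM176A had the smallest p, each at an adjusted p of 0.150 by edgeR. HSD3B1 was at 0, 0, 106 and 212 CPM in members and at 76.8, 0, 542 and 605 CPM in other cells. Leaving out WT 2 gave 253 calls of this term, leaving out WT 1 gave 7 and leaving out Ctcf-cKO 3 gave 1, so that the count of 0 depends on the mice compared. With all 4 mice no gene passed for a genotype difference particular to these cells.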

How the data were processed

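Single cell libraries of 4 testes were deposited as tables of raw counts, with gene symbols in rows and barcodes in columns. The authors isolated and barcoded cells on the ddSEQ droplet system, made 3′ libraries and aligned the reads to GRCm38, and the deposited counts were not normalized. How reads of 1 molecule were merged is not given in the sources used here. Cells had 200 to 7000 genes, at most 10% mitochondrial counts and at least 4338 (WT 1), 2379 (WT 2), 1299 (Ctcf-cKO 1) or 909 (Ctcf-cKO 3) counts. The members, gene lists and this rule were chosen with earlier results of these data known. The labels name each mouse as a sample, and the mouse was the replicate.

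Sums of counts over the cells of a class in a mouse were tested with edgeR 4.0.16 (quasi-likelihood, TMM, filterByExpr, Benjamini-Hochberg threshold 0.05) in R 4.3.3, with the mouse as a block in the class by genotype fit, and with DESeq2 1.42.0 as an alternative. Shares were compared with exact permutation tests. Fits were tested on simulated data. Doublets were called with Scrublet (scanpy 1.11.5) and kept in the main analysis. Of 25824 symbols 97.6% were found in the GENCODE annotation, which gave chromosomes. Named by genotype were up to 12 rises and 12 falls of the largest size past the threshold with both Ctcf-cKO mice on 1 side of both WT mice, and listed genes that passed. Named between classes were the 15 genes with the largest lowest ratio, of which the last is not reported here, and by the class by genotype term 3 genes a direction with the smallest p. The lists held acrosome, other round spermatid, elongating spermatid, spermatocyte, transcription, mRNA storage, Golgi, manchette, axoneme, histone, glycolysis, kinase, ribosomal, stress, CTCF and cohesin, and 5 somatic or blood groups. Without strand in the sources used here, antisense and overlapping genes were not told apart.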

Additional observations from a re-analysis of the deposited data

Results flagged for a closer look

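Of the gene lists, that of haploid glycolysis moved in opposite directions between members and other cells in the 2 genotypes. It took 1.64% and 1.86% of the counts of round spermatid-like cells in WT 1 and WT 2, against 1.96% in other cells of each. In Ctcf-cKO 1 and Ctcf-cKO 3 it took 1.68% and 1.55% in members, against 1.59% and 1.41% in other cells. The differences, members minus other cells, were -0.322, -0.103, 0.0832 and 0.142 percentage points, so that both WT mice lay below 0 and both Ctcf-cKO mice above. The difference between the genotypes was not tested. In members alone 0 of 18 genes of the list were called by genotype (edgeR; 1 higher and 2 lower at an unadjusted p under 0.05, and 0 called by DESeq2), and the somatic share of other cells was 0.334%, 0.177%, 3.55% and 3.05% in the same mice.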

How the results depend on the processing

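The number of genes called by genotype in members was 201, and stayed between 146 and 293 under 9 of the other settings of normalization, test, filter and cells. It was 27 with at least 10 counts in every sum, 24 with the top 10% and 347 with the top 30% of cells, 19 with 1 common marker share for all libraries, and 0 with members of at least 9 marker counts, an alternative chosen after seeing the data. Leaving out each mouse gave 160 to 377 calls, with 377 without Ctcf-cKO 1 (210 higher, 167 lower) and 340 without Ctcf-cKO 3. The class by genotype term gave 0 to 253 calls over the left-out mice and 0 elsewhere. Genes at least 2-fold higher in members numbered 587, 363 with counts divided by 4 and rounded up (chosen after seeing the data), 1110 at 1.5-fold and 577 to 1098 without each mouse, the highest without WT 2. The X-linked difference became -0.0346 with members of at least 9 marker counts. The somatic share difference kept its direction, at 0.521 to 1.43 percentage points, as did that of genes per cell. The causes were not tested. No paired analysis was made, since the replicate numbers in the labels do not name pairs of mice. In Ctcf-cKO 3 a median of 4 marker counts per member limits what the name and the genotype comparison can show.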

Other observations

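Further lists were described in members against other cells. The 23 Golgi and vesicle genes of acrosome formation had a median log2 ratio of 0.55, with none at least 2-fold higher in each mouse and none lower in all 4. Of 28 manchette and head genes 18 were higher in all 4 mice (64.3%, against 24.6% of all genes), 2 past 2-fold (7.14%, against 5.46%). The 32 genes of the chromatoid body and mRNA storage had a median of -0.20, although CPEB2, a translation regulator, was at 663, 691, 455 and 631 CPM in members against 66.3, 243, 113 and 64.7 CPM in other cells. H3F3B, which encodes histone H3.3, was the 1 of 19 histone replacement genes past 2-fold, at 1012, 1372, 1182 and 1278 CPM against 148, 580.4, 435 and 388 CPM. Of 13 genes of CTCF and cohesin 6 were higher in all 4 mice (46.2%, against 24.6% of all genes) and none was lower in all 4. The 5 testis serine kinases not used by the rule had a median of -0.36.

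The 51 ribosomal protein genes had a median of -0.32 and the 13 stress genes of tissue dissociation one of -1.22. By genotype, 0 of 7 stress genes tested in members were called (edgeR; 5 higher at an unadjusted p under 0.05, and 0 called by DESeq2), with a median log2 fold of 3.17. Of 26 mRNA storage, 21 Golgi, 25 manchette, 17 histone and 6 kinase genes tested, 0 were called by edgeR or by DESeq2. The same held for the 8 genes tested on the CTCF and cohesin list, and CTCF itself was not among them. Counted list by list, 4 were higher and 6 lower at an unadjusted p under 0.05 in edgeR. The kinases include TSSK4 of the rule, whose fall is 1 of the 6 and is a description only.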
